A study of Mus musculus with 12 samples.

Results

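The regulators of G protein signaling (Rgs) were examined in RNA-seq libraries from the striatum of hemiparkinsonian mice. The set was given by name and holds 10 genes, Rgs2, Rgs4, Rgs7, Rgs8, Rgs9, Rgs10, Rgs14, Rgs16, Rgs17 and Rgs20, of 52169 gene symbols in the deposited transcript table. All 10 had counts, on 91 transcripts in all, and each gene is represented by its transcript with the highest mean level over the 12 libraries. All 10 of these transcripts passed the filter on low counts in every comparison.

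The mice were female C57BL/6J animals that had received 3 µg of 6-OHDA, a toxin of catecholamine neurons, into the right medial forebrain bundle under protection of noradrenergic neurons by 25 mg/kg desipramine. After 2 weeks of recovery they were given L-DOPA (10 mg/kg) together with benserazide (7.5 mg/kg), an inhibitor of peripheral L-DOPA decarboxylation, as 1 injection (acute) or as 1 injection a day for 9 days (chronic). The animals were killed 1 hour after the last dose, and 3 punches of 2 mm diameter were taken per striatum. The 4 groups are thus lesioned and unlesioned striatum after acute L-DOPA and lesioned and unlesioned striatum after chronic L-DOPA, with 3 libraries each. All 4 groups come from lesioned animals that received L-DOPA, so the response to the lesion and the response to L-DOPA cannot be told apart here. The labels describe the lesion only by a typical loss of striatal tyrosine hydroxylase of at least 80%, and they count 12 mice with 3 per condition. They do not say whether libraries of both sides came from the same animals, so p-values measure the spread between these libraries.

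RGS proteins bind active G alpha subunits and speed up their GTP hydrolysis, which ends the signal that a G protein coupled receptor started. Medium spiny neurons, the main cells of the striatum, read dopamine through such receptors: D1 receptors act through stimulatory G proteins and D2 receptors through inhibitory ones. Members of the R4 subfamily, Rgs2, Rgs4, Rgs8 and Rgs16, are small proteins built mainly of the RGS domain. The R7 subfamily, Rgs7 and Rgs9, needs the G beta subunit Gnb5 for stability, Rgs10 and Rgs14 belong to the R12 subfamily, and Rgs17 and Rgs20 belong to the RZ subfamily.

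The promoters of Rgs2, Rgs4 and Rgs16 are shown because these 3 members were called higher on the lesioned side after chronic L-DOPA. Each line gives the 250 bases before the RefSeq start, 5′ to 3′ along the gene, from the GRCm38.p6 table, and capitals mark TGACG or its reverse complement CGTCA, the core of the cAMP response element. The positions are chr1:144004150-144004399 on the minus strand for Rgs2, chr1:169747643-169747892 on the minus strand for Rgs4 and chr1:153740103-153740352 on the plus strand for Rgs16.
Rgs2: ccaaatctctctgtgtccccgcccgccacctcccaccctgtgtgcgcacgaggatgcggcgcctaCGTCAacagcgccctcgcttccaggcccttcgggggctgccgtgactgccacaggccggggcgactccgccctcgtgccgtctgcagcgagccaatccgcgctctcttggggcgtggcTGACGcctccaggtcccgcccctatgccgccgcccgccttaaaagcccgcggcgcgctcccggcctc
Rgs4: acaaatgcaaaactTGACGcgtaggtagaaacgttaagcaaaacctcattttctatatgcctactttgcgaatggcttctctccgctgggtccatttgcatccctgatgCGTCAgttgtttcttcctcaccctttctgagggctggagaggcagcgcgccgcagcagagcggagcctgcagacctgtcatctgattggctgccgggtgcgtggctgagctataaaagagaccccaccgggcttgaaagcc
Rgs16: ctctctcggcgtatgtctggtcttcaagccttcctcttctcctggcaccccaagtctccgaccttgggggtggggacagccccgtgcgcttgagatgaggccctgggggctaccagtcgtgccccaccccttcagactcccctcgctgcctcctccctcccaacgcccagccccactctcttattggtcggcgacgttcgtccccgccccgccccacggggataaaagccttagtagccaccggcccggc

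Rgs2 held 2 matches to TGACG, at bases −185 and −67 counted back from the start, and Rgs4 held 2, at −236 and −141. Rgs16 held none. Entries existed for 8 of the 10 members, and the only other member with a match was Rgs8, with 1 at −46 in the first of its listed promoters. Among 27025 genes with a promoter of this length, 19.8% held at least 1 match on either strand and 4.46% held 2 or more in the same promoter. The full element TGACGTCA, which contains the core, was found in none of the 8 members and in 1.55% of 32851 promoters. The AP-1 motif TGANTCA was found in Rgs17, at −122, and in 6.75% of promoters, and the Egr motif GCGNGGGCG in Rgs2, at −176, and in 4.7% of promoters. A match describes these letters only, and binding was not measured in these libraries.

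Total counts over all transcripts lay between 87695043 and 173116525 per library, with a read counted on every transcript that it overlaps. Levels are given in counts per 1000000 (CPM) on TMM-normalized totals. Markers of other tissue differed between libraries: the summed level of 6 choroid plexus genes was 481 CPM in replicate 2 of the chronic unlesioned group against 3.75 to 11.7 CPM in the other 11 libraries. The summed level of 7 cortical glutamatergic genes was 2.08 to 23.2 CPM in the lesioned libraries and 5.54 to 42.2 CPM in the unlesioned libraries. Results of the members that rest on the library with choroid plexus transcripts are also given without it below. For genes of the other lists no values without that library are given. In bulk tissue, fewer cells of a type and less RNA per cell cannot be told apart.

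In the unlesioned striatum, the 10 members spanned more than 2 orders of magnitude per length. Over the 6 unlesioned libraries Rgs4 stood at 63.3 ± 8.9 CPM per kb (SD, n = 6) and Rgs9 at 40.3 ± 5.15 CPM per kb, and neither range overlapped that of the next gene. The place of Rgs9 depends on the transcript chosen. Its top transcript is 2486 bases long, with 11450 counts on average. Another listed transcript of 7630 bases held nearly as many, 11330, and so has a much lower level per kb. Rgs2 followed at 12.3 ± 1.45, Rgs8 at 11.1 ± 0.65, Rgs14 at 8.87 ± 1.82, Rgs20 at 8.39 ± 0.714 and Rgs10 at 8.01 ± 0.732 CPM per kb. The ranges of neighbours among these 5 genes overlapped, though Rgs2 and Rgs8 lay wholly above Rgs20 and Rgs10. The place of Rgs14 rests on the chronic group, with a mean of 10.1 CPM per kb there and 7.61 CPM per kb in the acute group, where Rgs20 (8.92) and Rgs10 (8.52) had higher means. Rgs7 at 3.91 ± 0.212, Rgs17 at 1.7 ± 0.188 and Rgs16 at 0.484 ± 0.255 CPM per kb were each separated from their neighbours. Rgs4, Rgs9 and Rgs8 are known as regulators of medium spiny neurons, and Rgs16 is an inducible member with little basal message.

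**Figure D1:**
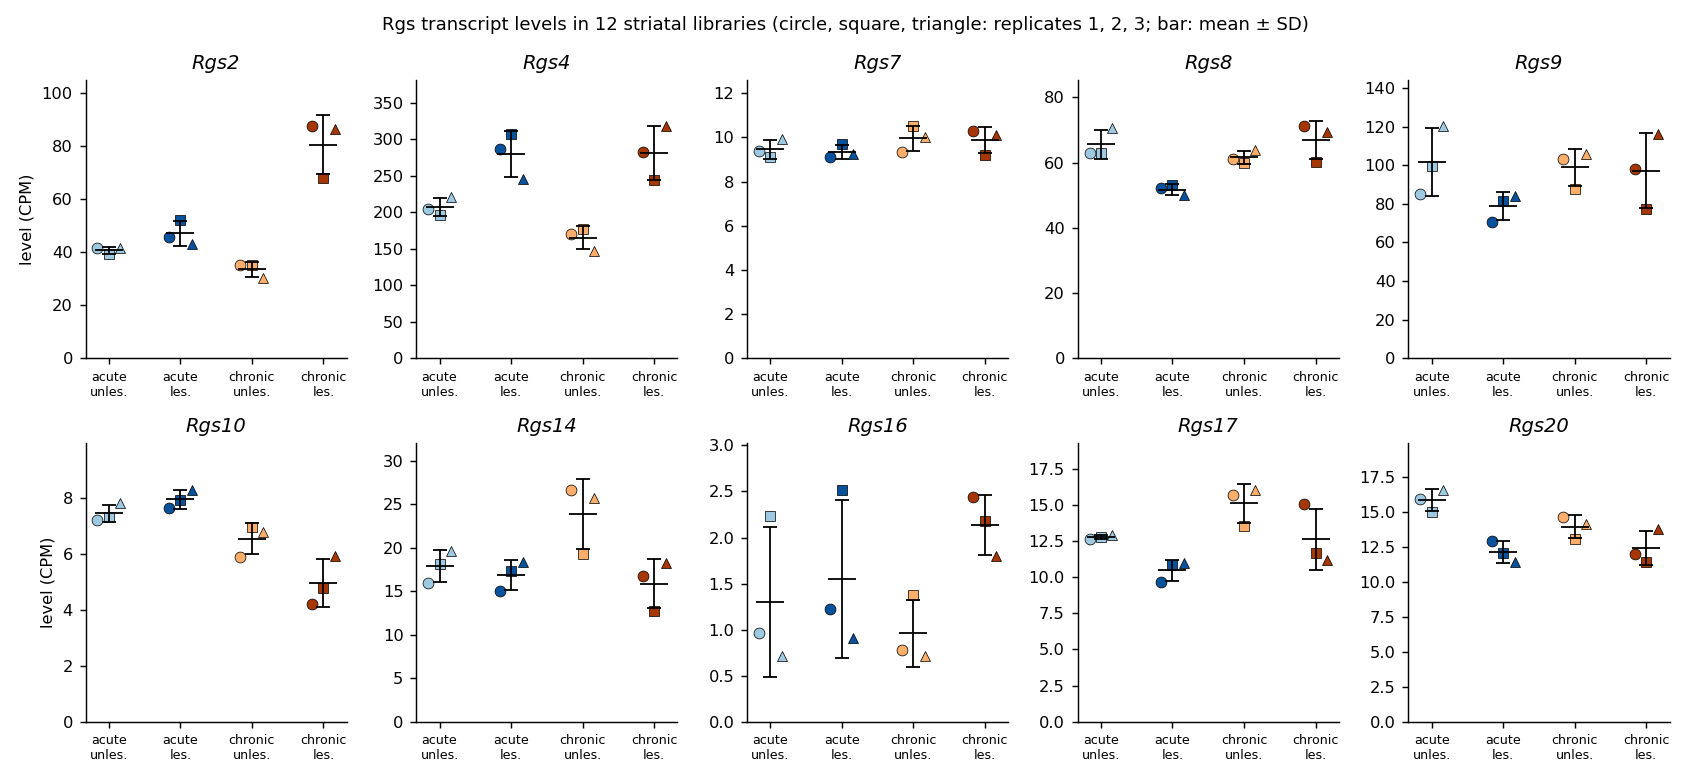
Levels (CPM, linear axis from 0) of the 10 Rgs genes in each of the 12 libraries, by group; symbols mark replicate numbers and bars the mean ± SD of 3 libraries. Rgs2 stands at 67.8 to 87.4 CPM in the chronic lesioned libraries and at 30.4 to 52.2 CPM in the other 9, whereas Rgs7 stays between 9.1 and 10.5 CPM in all 12.

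The first comparison asked which members differ between the lesioned and the unlesioned striatum after a single L-DOPA dose. Of the 10 members, 1 rose (Rgs4) and 4 fell (Rgs8, Rgs9, Rgs17 and Rgs20) at a Benjamini-Hochberg adjusted p under 0.05 in edgeR's quasi-likelihood test. The background for this comparison is 12.9% of all transcripts tested, and over the top transcripts of each gene 8.16% rose and 7.16% fell. The groups did not overlap for 6 members, a pattern that 35.0% of top transcripts shared. The median log2 fold change of the members was −0.05, against 0.02 over the top transcripts of all genes tested.

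After chronic L-DOPA the same question gave another set: 3 members rose (Rgs2, Rgs4 and Rgs16) and 1 fell (Rgs14), against a background of 12.0% of all transcripts, with 8.46% of top transcripts higher and 5.20% lower. The groups did not overlap for these 4 members, as for 32.3% of top transcripts, and without the library with choroid plexus transcripts 3 members were again called higher and 1 lower. The median log2 fold change was −0.02, against −0.01 over the top transcripts of all genes. With the replicate number as a block, 2 members were called higher and 4 lower after acute L-DOPA (background 21.8%) and 3 higher and 3 lower after chronic L-DOPA (background 21.6%). Without the block only Rgs4 was called in both lesion comparisons, under the block also Rgs2 and Rgs17, and whether the other calls differ between them was tested by the difference of the lesion effects.

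That difference, chronic minus acute, was called for 2 members, Rgs2 and Rgs8, both positive, against a background of 4.52% of all transcripts, with 3.53% of top transcripts positive and 1.56% negative. Under the block 6 members were called, Rgs2, Rgs8, Rgs9 and Rgs16 positive and Rgs10 and Rgs14 negative, against a background of 12.1%. The chronic and acute groups of the lesioned striatum differed for 3 members, with Rgs2 and Rgs8 higher and Rgs10 lower after chronic L-DOPA (background 23.3% of all transcripts, with 12.5% of top transcripts higher and 13.1% lower). In the unlesioned striatum edgeR called 0 of the 10 members between chronic and acute L-DOPA, where 2.61% of all transcripts were called. At an unadjusted p under 0.05 there were 6 of the 10, against 22.8% of top transcripts. DESeq2, which called 4.86% of transcripts there, called 3 members, Rgs14 higher and Rgs2 and Rgs4 lower. Without chronic unlesioned replicate 2, the library with choroid plexus transcripts, edgeR called 11.0% of transcripts and 4 members, Rgs14 and Rgs17 higher and Rgs2 and Rgs4 lower. These comparisons share groups with each other, so a member called in several of them was not seen in independent samples. Over the 5 comparisons 14 of 50 member tests were called, for 9 of the 10 members. The share of top transcripts called in either direction ran from 3.07% (chronic against acute, unlesioned striatum) to 25.6% (chronic against acute, lesioned striatum). The share of all genes called in any of the 5 comparisons was not computed. The count of 9 members therefore has no background and is not read as a response of the family.

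**Figure D2:**
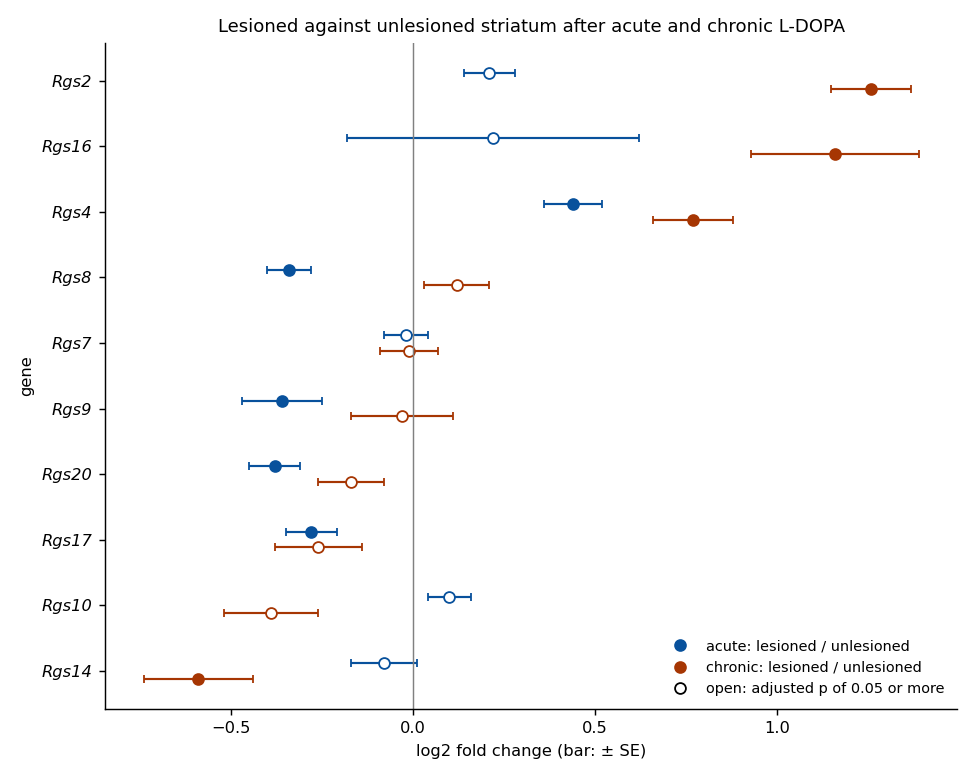
Log2 fold change of lesioned over unlesioned striatum (points, with ± SE) for each member after acute and chronic L-DOPA, filled where the adjusted p is under 0.05. Rgs2 and Rgs16 reach 1.26 and 1.16 after chronic L-DOPA and 0.21 and 0.22 after acute L-DOPA.

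Rgs2, which acts mainly on Gq and also dampens cAMP signaling, showed the widest range of group means among the members, 1.25 on the log2 scale. Its top transcript (NM_009061, mm9 chr1:145846468-145851279, minus strand, 5 exons) stood at 87.4, 67.8 and 86.2 CPM in the chronic lesioned libraries and at 35.3, 35 and 30.4 CPM in the chronic unlesioned ones. After acute L-DOPA the values were 45.6, 52.2 and 43.2 CPM on the lesioned side and 41.5, 39.2 and 41.4 CPM on the unlesioned side. Each lesioned library lay above each unlesioned library under both treatments, and every chronic lesioned library lay above all other libraries.

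Rgs2 rose 2.4-fold on the lesioned side after chronic L-DOPA (log2 fold change 1.26, SE 0.11, adjusted p = 4.1e-05). The acute difference was 0.21 (SE 0.07) with an adjusted p of 0.0749. It passed with the replicate number as a block (adjusted p = 0.0357) and without replicate 3 of the acute lesioned group (0.27, adjusted p = 0.0301), the only 1 of 6 fits leaving out a library that called it. Without replicate 2 of that group it was 0.13 (adjusted p = 0.254). The lesion effect was larger after chronic L-DOPA by 1.05 (SE 0.14, adjusted p = 0.000444), and the lesioned striatum alone held more Rgs2 after chronic than after acute L-DOPA by 0.78 (SE 0.11, adjusted p = 0.00078). Both calls held in each fit that left out a library, with values of 0.99 to 1.17 and 0.71 to 0.89. On the unlesioned side Rgs2 was lower after chronic L-DOPA by 0.28 on average, with non-overlapping groups and an adjusted p of 0.0715, and by 0.32 with an adjusted p of 0.0206 without the library with choroid plexus transcripts, the only 1 of 6 such fits that called it. All 8 listed transcripts of Rgs2 rose after chronic L-DOPA, by 1.26 to 1.31. After acute L-DOPA 3 of the 8 were called higher, with 0.21 to 0.27 over all 8. The transcripts share most of their reads.

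The summed level of 6 genes that mark D1 medium spiny neurons was highest in the chronic lesioned libraries, as Rgs2 was. It was 296 to 345 CPM in the chronic lesioned libraries, 171 to 212 CPM in the chronic unlesioned, 133 to 145 CPM in the acute lesioned and 176 to 188 CPM in the acute unlesioned ones. Tac1 and Pdyn held the largest parts of this sum, at means of 72.8 and 66.4 CPM over the 12 libraries. Between chronic lesioned and chronic unlesioned striatum 2 of the 6 genes rose and 2 fell, with a median log2 fold change of −0.23. The 2 that fell were the receptor genes Drd1a (−1.32, SE 0.13) and Chrm4 (−0.59, SE 0.12), opposite to Rgs2. After acute L-DOPA 5 of the 6 fell and 1 rose. For chronic against acute L-DOPA in the lesioned striatum 4 of the 6 were higher and 0 lower (median 1.02), and for the difference of the lesion effects 4 were positive and 0 negative (median 0.95). The part of these markers in the Rgs2 result was not tested.

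Rgs4, an abundant R4 member that acts on Gi and Gq, differed by lesion under both treatments. Its top transcript (NM_009062, mm9 chr1:171671608-171677773, minus strand, 5 exons) stood at 287, 307 and 245 CPM in the acute lesioned and at 204, 196 and 220 CPM in the acute unlesioned libraries. After chronic L-DOPA the values were 283, 244 and 318 CPM on the lesioned and 170, 178 and 147 CPM on the unlesioned side. The groups did not overlap in either comparison, and the lesioned libraries of both treatments covered nearly the same range.

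Rgs4 rose 1.36-fold after acute L-DOPA (0.44, SE 0.08, adjusted p = 0.005) and 1.71-fold after chronic L-DOPA (0.77, SE 0.11, adjusted p = 0.00127). All 4 of its transcripts were called in both comparisons, and the calls held in each fit that left out a library. The difference of 0.33 between the lesion effects (SE 0.15) did not pass, with an adjusted p of 0.237. Between chronic and acute L-DOPA the lesioned striatum differed by 0.01 (SE 0.11) and the unlesioned striatum by −0.33 (SE 0.08, adjusted p = 0.0623). Without replicate 2 of the chronic unlesioned group, the library with choroid plexus transcripts, the unlesioned difference was −0.39 and passed (adjusted p = 0.00929), in 1 of 6 fits that left out a library (−0.39 to −0.25).

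The summed level of 6 genes that mark D2 medium spiny neurons was higher on the lesioned side under both treatments, as Rgs4 was. It was 880 to 954 CPM in the acute lesioned and 519 to 611 CPM in the acute unlesioned libraries, and 805 to 1072 CPM in the chronic lesioned and 513 to 550 CPM in the chronic unlesioned ones. Penk held the largest part of this sum, at a mean of 543 CPM over the 12 libraries, with Adora2a next at 80.4 CPM. Of the 6 genes 5 rose and 1 fell after acute L-DOPA (median 0.48), and 2 rose and 1 fell after chronic L-DOPA (median 0.09). The gene that fell after chronic L-DOPA was Gpr52 (−0.55, SE 0.13). Drd2 (0.1, SE 0.1), Adora2a (0.03, SE 0.12) and Gpr6 (0.08, SE 0.1) were not called there. The part of these markers in the Rgs4 result was not tested.

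Rgs8, an R4 member known from Purkinje cells and striatum, was lower on the lesioned side after acute L-DOPA. Its top transcript (ENSMUST00000111812, mm9 chr1:155512442-155544797, plus strand, 7 exons) stood at 52.1, 53.2 and 50 CPM in the acute lesioned libraries and at 63.1, 63.1 and 70.6 CPM in the acute unlesioned ones. After chronic L-DOPA it stood at 71.2, 60.2 and 69.5 CPM on the lesioned and at 61.1, 59.9 and 63.9 CPM on the unlesioned side. The acute lesioned libraries lay below all other libraries, and the chronic groups overlapped.

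Rgs8 fell after acute L-DOPA by 0.34 on the log2 scale (SE 0.06, adjusted p = 0.00453), in all 14 of its transcripts. The chronic lesion effect of 0.12 (SE 0.09) had an adjusted p of 0.423. In the lesioned striatum the level was higher after chronic than after acute L-DOPA by 0.37 (SE 0.08, adjusted p = 0.00904), a call that held in each fit that left out a library. The difference between the lesion effects was 0.46 (SE 0.1, adjusted p = 0.0194), and 6 of the 14 transcripts were called for it. That difference lost its call without acute unlesioned replicate 3 (0.41, adjusted p = 0.0598), chronic lesioned replicate 1 (0.42, adjusted p = 0.0614) or chronic lesioned replicate 3 (0.43, adjusted p = 0.0556), and kept it under the replicate block (adjusted p = 0.00495).

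Rgs16, an inducible R4 member, had the lowest level of the set. Its top transcript (NM_011267, mm9 chr1:155587483-155592598, plus strand, 5 exons) lies 42.7 kb beyond the end of the Rgs8 transcript. In the chronic lesioned libraries it stood at 2.44, 2.17 and 1.8 CPM, from 197 to 235 counts, and in the chronic unlesioned libraries at 0.783, 1.38 and 0.719 CPM, from 85 to 165 counts. After acute L-DOPA it stood at 1.22, 2.52 and 0.904 CPM on the lesioned and at 0.963, 2.23 and 0.712 CPM on the unlesioned side. The chronic groups were separate, whereas the acute groups overlapped and replicate 2 was the high library on both sides.

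Rgs16 rose 2.23-fold on the lesioned side after chronic L-DOPA (1.16, SE 0.23, adjusted p = 0.00845). This call held in each fit that left out a library and was lost in a fit over all 12 libraries (1.16, adjusted p = 0.0618), which includes the spread of the acute groups. The acute lesion effect was 0.22 (SE 0.4, adjusted p = 0.763) and turned to −0.28 without acute lesioned replicate 2 and to −0.06 without acute unlesioned replicate 3. The lesion effects differed by 0.93 (SE 0.56, adjusted p = 0.401), and 0.89 with an adjusted p of 0.0148 under the block. Leaving out a library called that difference in 0 of 12 fits and moved it to between 0.31 (without acute unlesioned replicate 2) and 1.44 (without acute lesioned replicate 2). In the lesioned striatum the chronic level exceeded the acute one by 0.49 (SE 0.29, adjusted p = 0.247), a value that 1 of 6 fits leaving out a library called. It was 1 without acute lesioned replicate 2 (adjusted p = 0.00954) and 0.22 without acute lesioned replicate 3 (adjusted p = 0.589).

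The genes with the most similar pattern to these 3 members were sought by Pearson's r of log2(CPM + 0.1) over the 12 libraries, among top transcripts with a mean of at least 5 CPM. For Rgs2 they were Slc25a25, a mitochondrial ATP-Mg carrier, at r = 0.975, Pdp1, a phosphatase of pyruvate dehydrogenase, at 0.973, and Ppp2r5c, a regulatory subunit of protein phosphatase 2A, at 0.968. For Rgs4 they were Prkci at 0.964, Ndel1 at 0.938 and Mat2a at 0.935, and for Rgs16 Ranbp9 at 0.855, Gpt2 at 0.833 and Metap2 at 0.806. The points are the same 12 libraries for every gene and share their depth and group structure, so these values describe likeness only.

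Of the R7 members Rgs9 was called in 1 comparison and Rgs7 in none, and the difference between the genes was not tested. Rgs9, which limits D2 receptor signaling in medium spiny neurons, stood at 70.8, 81.5 and 84.2 CPM in the acute lesioned and at 85.2, 99.4 and 120 CPM in the acute unlesioned libraries (NM_011268, mm9 chr11:109086669-109159495, minus strand, 19 exons). After chronic L-DOPA it stood at 97.9, 77.4 and 116 CPM on the lesioned and at 103, 87.7 and 106 CPM on the unlesioned side. The acute groups were separate by a narrow gap and the chronic groups overlapped.

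Rgs9 fell after acute L-DOPA by 0.36 (SE 0.11, adjusted p = 0.0456), in 8 of its 10 transcripts. The call was lost without acute lesioned replicate 1 (−0.29, adjusted p = 0.117) or 2 (−0.39, adjusted p = 0.102), without acute unlesioned replicate 2 (−0.38, adjusted p = 0.089) or 3 (−0.23, adjusted p = 0.156), and in the fit over all 12 libraries (adjusted p = 0.124). The other 2 fits that left out a library kept it, at −0.41 and −0.47. Under the replicate block it was −0.35 with an adjusted p of 0.00117. The lesion effects differed by 0.34 (SE 0.2, adjusted p = 0.379), and 0.32 with an adjusted p of 0.0498 under the block. Leaving out a library called that difference in 0 of 12 fits (0.19 without chronic lesioned replicate 3 to 0.49 without chronic lesioned replicate 2). In the lesioned striatum the chronic level was higher by 0.3 (SE 0.13, adjusted p = 0.118), a value that 1 of 6 fits leaving out a library called. It was 0.44 without chronic lesioned replicate 2 (adjusted p = 0.00468) and 0.15 without chronic lesioned replicate 3 (adjusted p = 0.399). With all libraries, 4 of the 10 Rgs9 transcripts were called higher there (0.24 to 0.42 over all 10).

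Rgs7, the other R7 member, which acts on Go, was called in no comparison. Its top transcript (NM_001199003, mm9 chr1:176989207-177422676, minus strand, 18 exons) ranged over 0.09 on the log2 scale between group means. The levels were 9.1 to 9.72 CPM in the acute lesioned, 9.11 to 9.95 CPM in the acute unlesioned, 9.2 to 10.3 CPM in the chronic lesioned and 9.35 to 10.5 CPM in the chronic unlesioned libraries. The lesion effects were −0.02 (SE 0.06) after acute and −0.01 (SE 0.08) after chronic L-DOPA. Its locus overlaps 5 other listed genes on the same strand, whose reads may be shared.

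Of 5 listed partners of the R7 proteins, 4 were tested after acute L-DOPA and 2 fell, where 7.16% of top transcripts were called lower. These were Gpr158, an orphan receptor that recruits R7 proteins to the membrane, at −0.5 (SE 0.07, adjusted p = 0.00112), and Gnb5 at −0.36 (SE 0.06, adjusted p = 0.00252). Both also fell after chronic L-DOPA, Gnb5 by 0.5 (SE 0.09, adjusted p = 0.00677) and Gpr158 by 0.42 (SE 0.12, adjusted p = 0.0413). The third call among the 5 partners tested there was a rise of Rgs9bp, an anchor of Rgs9 that is known from photoreceptors, at a mean of only 0.0529 CPM, and 8.46% of top transcripts were called higher and 5.20% lower there. Rgs9bp passed the filter on low counts only through the chronic lesioned libraries (0.0925 to 0.216 CPM). The chronic unlesioned ones held 0.00921 to 0.047 CPM, so the call is not read as a result. For chronic against acute L-DOPA in the lesioned striatum the 2 partners went opposite ways, Gpr158 by 0.31 (SE 0.1, adjusted p = 0.0482) and Gnb5 by −0.32 (SE 0.09, adjusted p = 0.0269), against 12.5% of top transcripts higher and 13.1% lower. Rgs7bp, the palmitoylated anchor of R7 proteins, stood at a mean of 92.9 CPM and was not called in either lesion comparison, with −0.26 (SE 0.08) after acute and −0.18 (SE 0.08) after chronic L-DOPA. Under both treatments each lesioned library lay below the unlesioned library of the same number. Values with the replicate number as a block are not given for the partners.

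The R12 members were each called lower in 1 comparison. Rgs10, which is abundant in microglia and also found in neurons, stood at 4.23, 4.8 and 5.92 CPM in the chronic lesioned and at 7.64, 7.95 and 8.31 CPM in the acute lesioned libraries (NM_026418, mm9 chr7:135517139-135561686, minus strand, 5 exons). The unlesioned libraries held 5.91, 6.96 and 6.79 CPM after chronic and 7.22, 7.33 and 7.82 CPM after acute L-DOPA. On both sides the chronic libraries lay below the acute ones.

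In the lesioned striatum Rgs10 fell by 0.67 from acute to chronic L-DOPA (SE 0.12, adjusted p = 0.00244), in 10 of its 11 transcripts and in each fit that left out a library. The unlesioned difference was −0.18 (SE 0.08, adjusted p = 0.223). The chronic lesion effect was −0.39 (SE 0.13) with an adjusted p of 0.0712, which became 0.00633 under the replicate block, 0.0167 in the fit over all 12 libraries and 0.0454 in DESeq2. Of 6 fits that left out a library 1 called it, without chronic lesioned replicate 3 (−0.53, adjusted p = 0.0257), and the smallest value was −0.29 without chronic lesioned replicate 1 (adjusted p = 0.229). With all libraries, 2 of the 11 Rgs10 transcripts were called lower for the chronic lesion effect. The difference between the lesion effects was −0.49 (SE 0.15, adjusted p = 0.0741). It passed at −0.5 under the block (adjusted p = 0.00656), in DESeq2 (adjusted p = 0.0355) and without chronic lesioned replicate 3 (−0.64, adjusted p = 0.0114), the only 1 of 12 fits leaving out a library that called it (−0.64 to −0.39). The locus overlaps 3 listed genes on the same strand.

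Microglial markers moved with Rgs10. Of 9 marker genes, 7 fell in the lesioned striatum from acute to chronic L-DOPA and 4 fell in the unlesioned striatum. Their summed level was 94.7 to 113 CPM in the acute lesioned, 60 to 76.7 CPM in the chronic lesioned, 84.7 to 89.5 CPM in the acute unlesioned and 57.6 to 74.2 CPM in the chronic unlesioned libraries. After acute L-DOPA 4 of the 9 rose on the lesioned side, where Rgs10 was not called. No marker of the list was called between lesioned and unlesioned striatum after chronic L-DOPA, where the median log2 fold change of the list was 0.09. In the same comparison of the lesioned striatum 8 of 8 oligodendrocyte markers (median −0.84), 4 of 5 blood markers (median −1.23), 4 of 7 astrocyte markers (median −0.33) and 2 of 3 markers of cholinergic interneurons (median −0.33) also fell. The part of these cells in the Rgs10 result was not tested.

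Rgs14, a scaffold with binding sites for Ras proteins and G alpha i, was lower on the lesioned side after chronic L-DOPA. Its top transcript (NM_016758, mm9 chr13:55471093-55486048, plus strand, 15 exons) stood at 16.7, 12.8 and 18.2 CPM in the chronic lesioned and at 26.7, 19.2 and 25.7 CPM in the chronic unlesioned libraries. After acute L-DOPA it stood at 15, 17.3 and 18.4 CPM on the lesioned and at 16, 18.1 and 19.7 CPM on the unlesioned side. The chronic groups did not overlap, the acute groups did, and the mean was highest in the chronic unlesioned group.

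Rgs14 fell on the lesioned side after chronic L-DOPA by 0.59 (SE 0.15, adjusted p = 0.0278), in all 8 transcripts, and by 0.59 with an adjusted p of 5.68e-05 under the replicate block. The call was lost without chronic lesioned replicate 1 (−0.62, adjusted p = 0.0686) or 2 (−0.44, adjusted p = 0.0513) and without chronic unlesioned replicate 1 (−0.5, adjusted p = 0.102) or 3 (−0.53, adjusted p = 0.105). The acute lesion effect was −0.08 (SE 0.09). The chronic minus the acute lesion effect was −0.5 (SE 0.19, adjusted p = 0.175), and passed under the block (adjusted p = 0.00109) but in 0 of 12 fits that left out a library (−0.63 to −0.36). On the unlesioned side the chronic level exceeded the acute one by 0.41 (SE 0.12, adjusted p = 0.0791), and by 0.54 with an adjusted p of 0.00231 without the library with choroid plexus transcripts, the only 1 of 6 such fits that called it (0.33 to 0.54). With all libraries, 1 of the 8 Rgs14 transcripts was called higher there.

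Cortical markers were uneven in the same libraries. Their summed level was 25.2, 5.54 and 42.2 CPM in the chronic unlesioned libraries and 23.2, 2.16 and 2.08 CPM in the chronic lesioned ones, in the order of the replicates. Replicate 2 of the unlesioned group had the lowest cortical sum and the lowest Rgs14 level of its group, whereas replicate 3 of the lesioned group had the lowest cortical sum and the highest Rgs14 level of its group. None of the 6 cortical markers tested was called in that comparison, and the median of the list was −1.58. After acute L-DOPA, where the Rgs14 difference was −0.08, that median was −1.35 and 1 of 7 markers was called lower. The part of cortical tissue in the Rgs14 result was not tested. An unnamed transcript, AK132356, lies on the opposite strand, and the library kit does not mark strand, so its reads cannot be told apart from those of Rgs14.

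**Figure D3:**
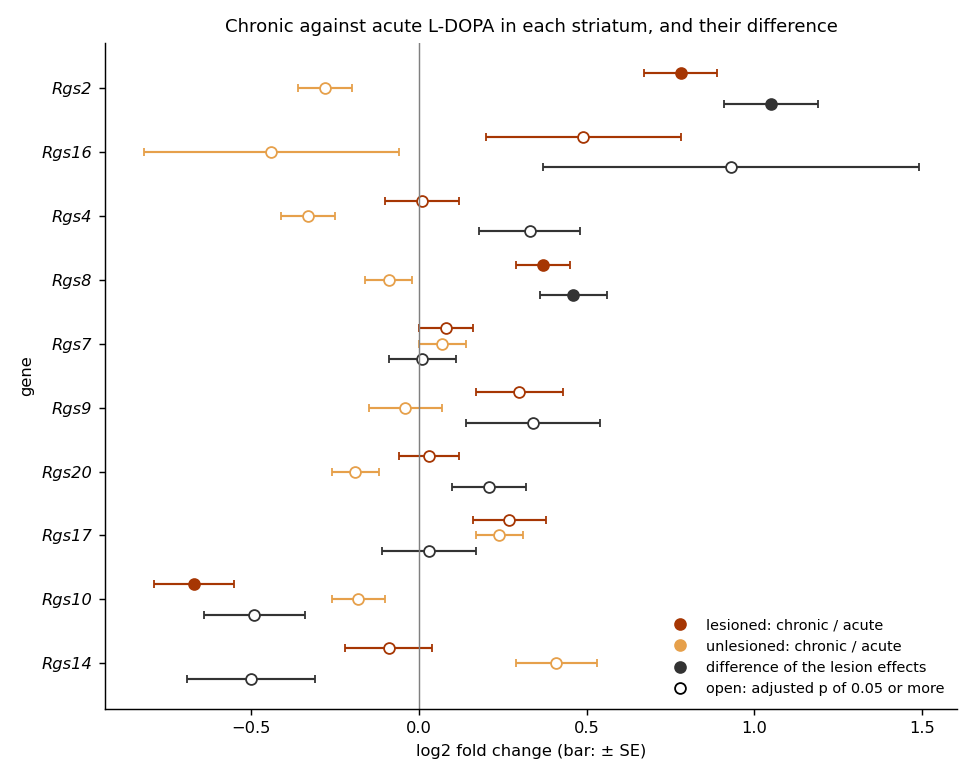
Log2 fold change (points, with ± SE) of chronic over acute L-DOPA in the lesioned and in the unlesioned striatum, and the difference of the lesion effects, for each member. Filled points have an adjusted p under 0.05: Rgs2 and Rgs8 lie to the right at 0.78 and 0.37 in the lesioned striatum, and Rgs10 lies to the left at −0.67.

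The RZ members, which act on Gz and other Gi class subunits, were both lower on the lesioned side after acute L-DOPA. Rgs20 stood at 13, 12.1 and 11.4 CPM in the acute lesioned and at 15.9, 15 and 16.6 CPM in the acute unlesioned libraries (ENSMUST00000002533, mm9 chr1:4899657-5009620, minus strand, 5 exons). After chronic L-DOPA it stood at 12, 11.4 and 13.8 CPM on the lesioned and at 14.7, 13.1 and 14.1 CPM on the unlesioned side. The groups were apart after acute L-DOPA and overlapped after chronic L-DOPA.

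Rgs20 fell after acute L-DOPA by 0.38 (SE 0.07, adjusted p = 0.00338), in 11 of 12 transcripts tested and in each fit that left out a library. The chronic lesion effect was −0.17 (SE 0.09, adjusted p = 0.281), and the difference of 0.21 between the effects (SE 0.11) had an adjusted p of 0.334. The locus overlaps AK044237 on the opposite strand, whose reads cannot be told apart, and 2 listed entries on the same strand, AK030765 and ENSMUST00000168963.

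Rgs17 stood at 9.64, 10.9 and 11 CPM in the acute lesioned and at 12.7, 12.8 and 12.9 CPM in the acute unlesioned libraries (NM_001161822, mm9 chr10:4424141-4520878, plus strand, 6 exons). After chronic L-DOPA the values were 15.1, 11.7 and 11.2 CPM on the lesioned and 15.7, 13.6 and 16.1 CPM on the unlesioned side. The acute groups were apart, and chronic lesioned replicate 1 lay within the range of the chronic unlesioned group.

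Rgs17 fell after acute L-DOPA by 0.28 (SE 0.07, adjusted p = 0.0147), in 3 of its 11 transcripts (−0.33 to −0.28). The other 8, which are shorter and hold fewer counts, lay at −0.13 to −0.01. The call was lost without acute unlesioned replicate 2 (adjusted p = 0.0544) and in the fit over all 12 libraries (adjusted p = 0.099). The chronic effect was nearly as large, −0.26 (SE 0.12), with an adjusted p of 0.198 that became 0.0432 under the replicate block. Of 6 fits that left out a library 1 called it, without chronic lesioned replicate 1 (−0.4, adjusted p = 0.0461), and without chronic lesioned replicate 3 it was −0.17 (adjusted p = 0.514). The difference between the effects was 0.03 (SE 0.14). Between chronic and acute L-DOPA the level differed by 0.24 in the unlesioned striatum (SE 0.07, adjusted p = 0.0968), and by 0.31 with an adjusted p of 0.0115 without the library with choroid plexus transcripts, the only 1 of 6 such fits that called it (0.2 to 0.31).

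Markers of medium spiny neurons moved with the 4 members that fell after acute L-DOPA. Of 6 genes shared by D1 and D2 neurons, 4 fell in that comparison, and their summed level was 1355 to 1455 CPM in the acute lesioned and 1576 to 1883 CPM in the acute unlesioned libraries. After chronic L-DOPA none of the 6 was called, with sums of 1208 to 1571 CPM on the lesioned and 1520 to 1615 CPM on the unlesioned side. Of 6 D1 markers 5 fell and of 6 D2 markers 5 rose after acute L-DOPA. Their part in the falls of Rgs8, Rgs9, Rgs17 and Rgs20 was not tested.

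**Figure D4:**
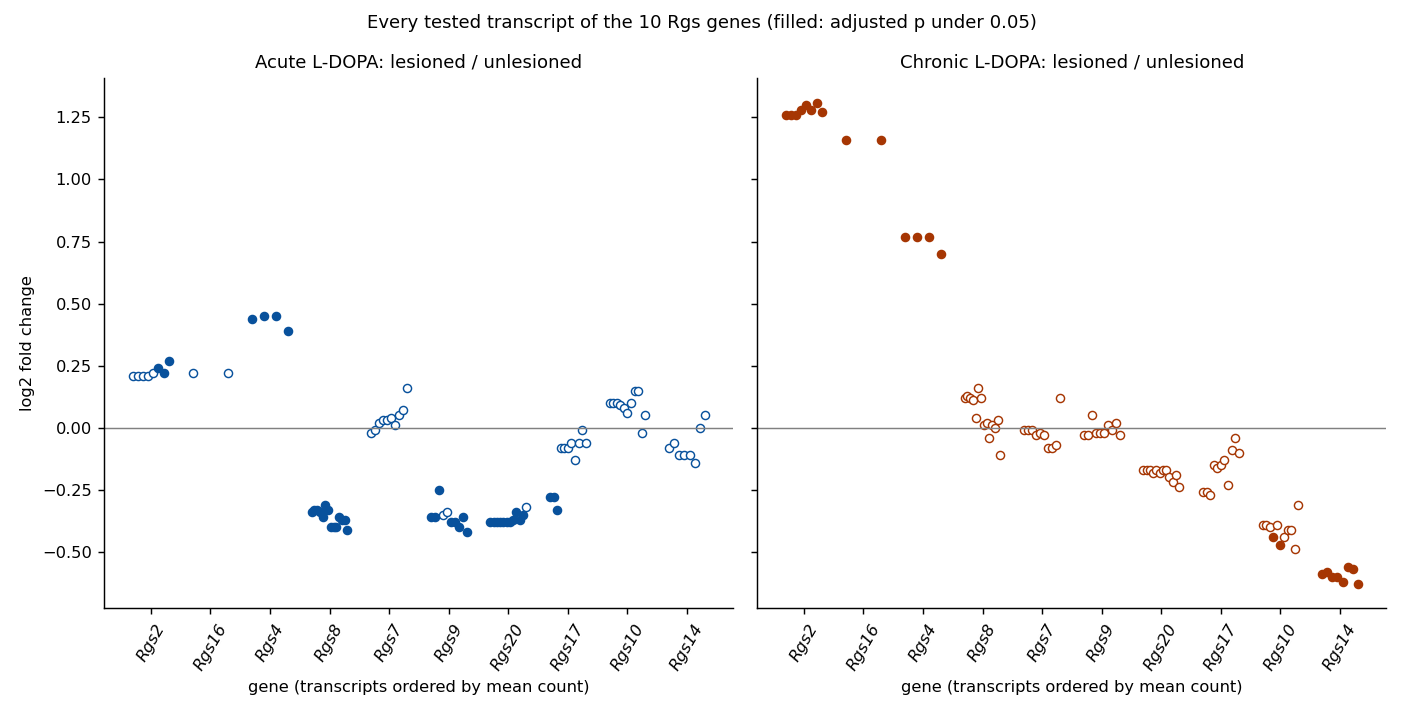
Log2 fold change of lesioned over unlesioned striatum for each tested transcript of the 10 genes after acute (left) and chronic (right) L-DOPA, filled where the adjusted p is under 0.05. The transcripts of a gene share reads and lay close together for Rgs2 after chronic L-DOPA (1.26 to 1.31) and Rgs8 after acute L-DOPA (−0.41 to −0.31), but spread from −0.33 to −0.01 for Rgs17 after acute L-DOPA.

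Of the 10 members, 6 lie on chromosome 1. Rgs8 and Rgs16 are neighbours there, and Rgs8 fell after acute L-DOPA where Rgs16 was not called, and Rgs16 rose after chronic L-DOPA where Rgs8 was not called. Rgs5, a pericyte gene at a mean of 18 CPM, lies 45.7 kb from Rgs4. It was called in neither lesion comparison, with 0.23 (SE 0.1) after acute and 0.11 (SE 0.17) after chronic L-DOPA.

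The list of the remaining Rgs genes holds 11, of which 8 were tested after acute L-DOPA and none was called, with 2 at an unadjusted p under 0.05 (Rgs3 and Rgs5), against 31.4% of top transcripts. After chronic L-DOPA 7 were tested and 2 rose: Rgs6, the R7 member best known from heart, by 0.75 (SE 0.15, adjusted p = 0.00846) and Rgs19, an RZ member, by 0.43 (SE 0.12, adjusted p = 0.0434), both at means near 2 CPM, where 8.46% of top transcripts were called higher. For chronic against acute L-DOPA in the lesioned striatum 3 of 7 tested were called, against 12.5% of top transcripts higher and 13.1% lower: both genes were higher after chronic than after acute L-DOPA, by 0.98 (SE 0.11, adjusted p = 0.000232) and 0.51 (SE 0.14, adjusted p = 0.0262), and Rgs5 fell by 0.46 (SE 0.13, adjusted p = 0.0295).

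Among 12 G alpha subunits of all classes, 4 rose and 1 fell after acute L-DOPA, against 8.16% of top transcripts higher and 7.16% lower. Gnai3, an inhibitory subunit, rose by 1.21 (SE 0.07, adjusted p = 4.84e-07), Gnas, the stimulatory subunit, rose by 0.45 (SE 0.07, adjusted p = 0.00193), and Gnaz, the subunit that RZ proteins act on, fell by 0.32 (SE 0.08, adjusted p = 0.0174). The Gnas locus also gives antisense RNA, whose reads cannot be told apart. After chronic L-DOPA Gnai3 alone was called, at 1.45 (SE 0.09, adjusted p = 4.16e-06), against 8.46% higher and 5.20% lower. In the lesioned striatum 4 subunits fell from acute to chronic L-DOPA, against 13.1% of top transcripts, among them Gna12 by 0.87 (SE 0.18, adjusted p = 0.006) and Gnai2 by 0.42 (SE 0.09, adjusted p = 0.00995).

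Of 16 striatal receptors that signal through G proteins, 3 rose and 7 fell after acute L-DOPA, against 8.16% of top transcripts higher and 7.16% lower. The dopamine D1 receptor gene Drd1a fell by 2.3 (SE 0.1, adjusted p = 1.36e-08) and the muscarinic receptor gene Chrm4 by 1.74 (SE 0.1, adjusted p = 2.4e-07). The orphan receptor gene Gpr6 rose by 0.62 (SE 0.06, adjusted p = 6.32e-05) and the adenosine receptor gene Adora2a by 0.33 (SE 0.09, adjusted p = 0.0394). After chronic L-DOPA 2 rose and 4 fell, against 8.46% of top transcripts higher and 5.20% lower.

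The chronic rises were those of the serotonin receptor gene Htr1b, by 1.42 (SE 0.08, adjusted p = 1.09e-06), and of the adenosine receptor gene Adora1, by 0.8 (SE 0.09, adjusted p = 0.000341). Drd1a fell there by 1.32 (SE 0.13, adjusted p = 0.000101) and Chrm4 by 0.59 (SE 0.12, adjusted p = 0.00884). The difference of the lesion effects was called for 5 receptors, 4 positive and 1 negative, against 3.53% of top transcripts positive and 1.56% negative. They included Chrm4 at 1.15 (SE 0.17, adjusted p = 0.00103), Htr1b at 1.14 (SE 0.15, adjusted p = 0.00031) and Gpr6 at −0.54 (SE 0.12, adjusted p = 0.0183). For chronic against acute L-DOPA in the lesioned striatum 5 receptors were higher and 3 lower, against 12.5% of top transcripts higher and 13.1% lower. Drd1a differed by 1.06 (SE 0.14, adjusted p = 0.000646) and Htr1b by 1 (SE 0.12, adjusted p = 0.000244), and Gpr6 by −0.64 (SE 0.09, adjusted p = 0.000908) and Adora2a by −0.6 (SE 0.11, adjusted p = 0.00446). In the unlesioned striatum Drd2, the D2 receptor gene, was the only receptor called between chronic and acute L-DOPA, at −0.33 (SE 0.07, adjusted p = 0.0401). There 1.07% of top transcripts were called higher and 2.00% lower. That comparison includes the library with choroid plexus transcripts, and its number of calls changed widely when a library was left out.

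**Figure D5:**
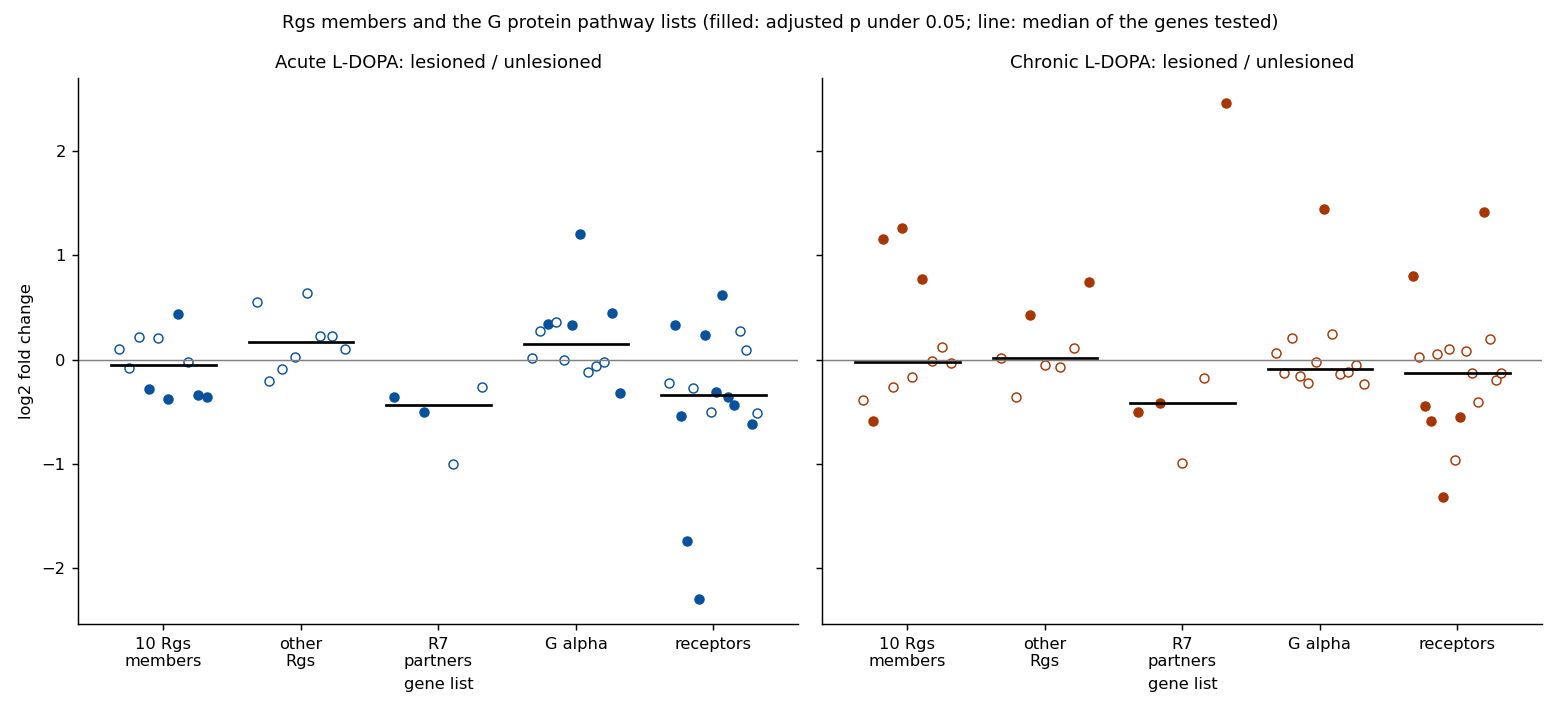
Log2 fold change of lesioned over unlesioned striatum for the 10 members and the tested genes of 4 pathway lists after acute (left) and chronic (right) L-DOPA, filled where the adjusted p is under 0.05, with the median of each list as a line. The medians of the members lie at −0.05 and −0.02, and those of the receptors at −0.33 and −0.13.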

How the data were processed

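The authors mapped reads of 12 TruSeq libraries to mm9 and deposited, without normalization, the read count of each of 189660 transcripts of the Genomatix list. The labels name DESeq, and settings for strand are not given in the sources used here. A normalized signal for each transcript, made by the authors from counts, transcript length and library size, was also deposited and served as a check. Fold changes and p-values fill 3 further deposited tables, which were not used, nor were their 36 columns of per-sample values.

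The 10 genes, the pathway lists and the marker lists were chosen with earlier results of these data known. Pairs of groups were fitted on 6 libraries each, and the change of lesion effect (an interaction) used all 12, with edgeR 4.0.16 (limma 3.58.1, R 4.3.3): filterByExpr by group, TMM, glmQLFit and glmQLFTest, with Benjamini-Hochberg adjustment over all transcripts tested (129674 after acute L-DOPA) and a threshold of 0.05. A standard error is the size of the log2 fold change divided by the square root of F. The steps were tested on simulated data. All members are named, and from each pathway list up to 2 higher and 2 lower called genes per comparison with a mean of at least 1 CPM, by size of the change. Rgs3, Rgs5, Rgs7bp and Rgs9bp were named after their values were seen, where that rule does not name them. Transcripts naming no gene (296) held 0.0485% of counts. Total counts lay between 87695043 and 173116525, a depth at which counting error is small for all members but Rgs16 (85 to 310 counts). Replicates differed beyond counting noise, with a chi-square per degree of freedom of 5.41 to 19.7.

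Same-numbered lesioned and unlesioned libraries deviated together from their group means over 12794 genes (r = 0.472, 0.465 and 0.385 after acute and 0.515, 0.572 and 0.159 after chronic L-DOPA). Libraries of unlike number gave r from −0.295 to −0.127 after acute and from −0.515 to 0.153 after chronic L-DOPA, the last for lesioned replicate 1 with unlesioned replicate 3. Chronic pair 3, at 0.159, is thus not told apart from a mismatch. Blocked values for chronic L-DOPA and for the difference of the lesion effects rest on that pair too. Since all same-numbered values exceed 0.1, the numbers were taken as pairs, from the data and not from the labels. For the members, blocked values are given where they change a call. Alternatives were DESeq2 size factors, DESeq2 1.42.0, no filter, a single transcript per gene, the block, a fit over all 12 libraries and each library left out. Promoters came from RefSeq (GRCm38.p6), matched by symbol.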

Additional observations from a re-analysis of the deposited data

Results flagged for a closer look

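The lesion effect differed between chronic and acute L-DOPA for 2 members by the test of the difference itself, in edgeR's quasi-likelihood interaction over 12 libraries. The background is 4.52% of all transcripts. For Rgs2 the log2 difference was 1.05 (SE 0.14, adjusted p = 0.000444), and the level was above all unlesioned libraries in 3 of 3 chronic lesioned libraries. For Rgs8 it was 0.46 (SE 0.1, adjusted p = 0.0194), with the acute lesioned libraries below the acute unlesioned ones in 3 of 3 and the chronic groups overlapping. Lesioned and unlesioned groups did not overlap for 35.0% of top transcripts after acute and 32.3% after chronic L-DOPA. The difference of the lesion effects was called in 6 of 14 Rgs8 transcripts and 8 of 8 Rgs2 transcripts. With the replicate number as a block it was also called for Rgs9, Rgs16, Rgs10 and Rgs14, against a background of 12.1%.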

How the results depend on the processing

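Over 50 member tests, DESeq2's size factors and a single transcript per gene left the direction and the call of all 50 as they were, DESeq2 added 5 calls, no filter 2 and the replicate block 7. The fit over all 12 libraries, possible for 40 tests, lost 3 calls and added 1. In 360 fits that left out a library, 312 kept direction and call, 12 lost a call, 10 gained one and 26 reversed a value that was not called. The cause of these changes was not tested. Depth limits Rgs16 most, at 85 to 310 counts per library.

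Transcripts called between the sides after acute L-DOPA numbered 16684, and 3135 with a single transcript per gene (fewer features tested), 28240 under the block and 9543 to 15329 without a library. After chronic L-DOPA 15295 became 2663, 27506 under the block, 22945 with all 12 libraries and 9137 to 14863 without a library. For chronic against acute L-DOPA, 29699 in the lesioned striatum became 4914 with a single transcript per gene and 16025 to 36534 without a library. In the unlesioned striatum 3370 became 6278 in DESeq2, 5821 without the filter, 544 with a single transcript per gene and 66 (without acute unlesioned replicate 2) to 14377 (without chronic unlesioned replicate 2). For the difference of the lesion effects 5911 became 1053 with a single transcript per gene, 15875 under the block and 3794 to 9536 without a library.

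Members called after acute L-DOPA were 1 higher and 4 lower, with 2 higher under the block, 2 lower over all 12 libraries, and 1 to 2 higher and 2 to 4 lower without a library. After chronic L-DOPA 3 higher became 2 over all 12 libraries, where Rgs16 lost its call. The 1 lower became 2 in DESeq2, 3 under the block, 2 over all 12 libraries and 0 to 2 without a library. In the unlesioned striatum 0 became 1 higher and 2 lower in DESeq2, 1 higher and 1 lower without the filter, and 0 to 2 in each direction without a library. For the difference of the lesion effects 2 higher and 0 lower became 1 lower in DESeq2, 4 higher and 2 lower under the block, and 1 to 2 higher and 0 to 1 lower without a library. The same numbers did not pair chronic with acute libraries (r from −0.148 to 0.233), and the block changed no member call there.

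Values that changed sign without a library were all uncalled. They were Rgs7 (−0.04 to 0.02) and Rgs16 (−0.28 to 0.84) after acute L-DOPA, and Rgs7 (−0.06 to 0.05) and Rgs9 (−0.17 to 0.13) after chronic L-DOPA. For chronic against acute L-DOPA they were Rgs4 (−0.09 to 0.1), Rgs14 (−0.2 to 0.05) and Rgs20 (−0.05 to 0.09) in the lesioned and Rgs9 (−0.14 to 0.1) and Rgs16 (−0.8 to 0.18) in the unlesioned striatum. For the difference of the lesion effects they were Rgs7 (−0.04 to 0.06) and Rgs17 (−0.12 to 0.11).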
